A study of Mus musculus with 49 samples.

Results

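Car4, Prss23, Gstm1, Mt1, Scrg1 and Fxyd1 were 6 genes of the mouse hippocampus whose transcripts stood above those of non-transgenic mice both in mice that carried only the tTA transgene and in rTg4510 mice, which carry tTA together with mutant human tau. They were picked by name for that pattern, from tTA and rTg4510 arrays that stood above DN arrays in at least 1 subfield. All differences from DN are therefore given as a description, with no test. The 6 genes were read by 12 probe sets, out of 11807 genes and 22626 probe sets on the array.

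Pyramidal neurons of CA1 and CA3 and granule neurons of the dentate gyrus (DG) were cut from frozen brain sections by laser capture, and amplified RNA from each capture was hybridized to its own Affymetrix HT-MG-430A array. All mice were females of 6.1 months and littermates from a cross of a CaMKIIα-tTA breeder with a TRE-htau breeder, the latter on FVB/N and the former on another inbred background. DN mice (Double Negative) inherited neither transgene, tTA mice carried only the transactivator, and rTg4510 mice carried both transgenes, so that the Camk2a promoter, active in forebrain excitatory neurons, drove tTA in both transgenic groups. The 49 arrays came from 17 mice: 6 DN, 5 tTA and 5 rTg4510 for CA1, with 5, 5 and 6 for CA3 and 6, 5 and 6 for DG. Values below are log2 levels and their differences, and 1 unit is a doubling. The array reads mouse transcripts, and the human transgene was not analysed here.

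The 6 genes encode proteins of different kinds. Car4 is a carbonic anhydrase held on the outer cell surface, where it interconverts carbon dioxide and bicarbonate, and in brain it is known from capillaries, glia and some neurons. Gstm1 conjugates glutathione to reactive compounds, Mt1 is a small protein that binds zinc and copper, and both are rich in astrocytes. Fxyd1, also called phospholemman, is a small membrane protein that tunes the sodium pump, Prss23 is a secreted serine protease, and Scrg1 (scrapie responsive gene 1) encodes a small secreted protein first described in prion-infected brain. Mt1 transcription is known to answer to zinc, through metal response elements bound by the factor MTF1, and to glucocorticoids, and many glutathione transferases answer to oxidative stress through antioxidant response elements bound by Nrf2.

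The 250 bases before the annotated start of transcription are shown for 4 of the genes. Of these, 3 (Mt1, Gstm1 and Fxyd1) varied together from array to array and Car4 did not. Scrg1 varied with those 3 as well, but the sequences used held no start for it. Prss23 did not vary with them, and its windows are described below without being shown. Sequences are those of RefSeq on GRCm38.p6, read 5′ to 3′ along the gene's own strand, and capitals mark the core of a metal response element, TGCACNC or TGCGCNC, on either strand. The stretches lie at chr8:94178839-94179088, plus strand for Mt1, chr3:108017819-108018068, minus strand for Gstm1, chr7:31054854-31055103, minus strand for Fxyd1 and chr11:84957504-84957753, plus strand for Car4. For Gstm1, which has 2 annotated starts, the one farther downstream is used.
Mt1: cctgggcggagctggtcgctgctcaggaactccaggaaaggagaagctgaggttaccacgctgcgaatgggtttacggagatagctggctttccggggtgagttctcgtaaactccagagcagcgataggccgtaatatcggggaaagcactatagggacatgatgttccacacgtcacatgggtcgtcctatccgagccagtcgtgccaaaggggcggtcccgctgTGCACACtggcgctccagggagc
Gstm1: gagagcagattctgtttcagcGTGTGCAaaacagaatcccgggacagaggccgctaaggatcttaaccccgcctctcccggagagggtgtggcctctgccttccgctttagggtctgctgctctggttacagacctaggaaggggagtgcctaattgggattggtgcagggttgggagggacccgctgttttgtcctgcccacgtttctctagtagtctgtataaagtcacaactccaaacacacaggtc
Fxyd1: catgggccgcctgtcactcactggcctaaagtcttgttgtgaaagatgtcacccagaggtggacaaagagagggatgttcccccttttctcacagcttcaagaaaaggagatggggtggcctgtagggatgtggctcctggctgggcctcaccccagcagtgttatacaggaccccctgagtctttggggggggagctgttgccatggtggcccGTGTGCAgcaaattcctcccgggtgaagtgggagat
Car4: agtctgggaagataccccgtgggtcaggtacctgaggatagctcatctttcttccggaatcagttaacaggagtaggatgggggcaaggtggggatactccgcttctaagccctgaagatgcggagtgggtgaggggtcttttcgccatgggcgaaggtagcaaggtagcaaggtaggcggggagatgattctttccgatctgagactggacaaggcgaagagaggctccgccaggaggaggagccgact
Mt1, Gstm1 and Fxyd1 each held 1 metal response core in the stretch shown, and Car4 held none. In the whole window of 300 bases, which runs past the annotated start, Mt1 held 3, Gstm1 and Fxyd1 1 each and Car4 none. Among 32817 such windows of the mouse genome 25.7% held at least 1 metal response core and 7.12% held 2 or more, so a single match is common. The antioxidant response core TGACNNNGC, present in 12.4% of the windows, was in none of the windows of Mt1, Gstm1, Fxyd1, Car4 or Prss23. Bases outside these windows were not searched, so a window without a core does not show that the gene lacks the element. Whether the annotated starts are those used in brain was not tested. Prss23 has 7 annotated starts, and 1 of its windows held a metal response core. Matches are descriptions of letters, not of sites in use.

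The captures were checked against markers of the layers. The mean level of 4 CA1 pyramidal markers ran from 9.12 to 9.41 in DN CA1 arrays and from 5.41 to 5.79 in DN CA3 arrays, and 6 CA3 pyramidal markers ran from 6.91 to 7.22 in DN CA3 against 4.96 to 5.53 in DN CA1. The 6 dentate granule markers were between 7.39 and 7.85 in DN DG and no higher than 6.04 in DN CA1. In rTg4510 CA1 the CA1 pyramidal markers had a mean between 6.40 and 8.03, below all DN CA1 arrays. In tTA CA3 that mean was 7.01 in mouse4592, against 5.47 to 5.91 in the other mice. The dentate granule mean was 6.10 in rTg4510 CA3 mouse4549, against 4.90 to 5.18 in the others. It was 6.11 in tTA CA1 mouse4570, against 4.98 to 5.38 in the others. Whether these captures held cells of another layer was not tested. The log2 ratio of 3-prime to 5-prime Actb control probe sets, a sign of RNA length, averaged -0.37 in DN, -0.70 in tTA and -0.48 in rTg4510 CA1, -0.45, -0.64 and -0.63 in CA3, and -0.30, -0.61 and -0.52 in DG, so it was highest in DN mice in each subfield. Differences from DN are also given below with this ratio as a covariate, a setting chosen for them after the data were seen. The DN mice were numbered mouse4797 to mouse4886 and the transgenic ones mouse4535 to mouse4666, so any effect that goes with the number and that of the DN genotype cannot be told apart.

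**Figure D1:**
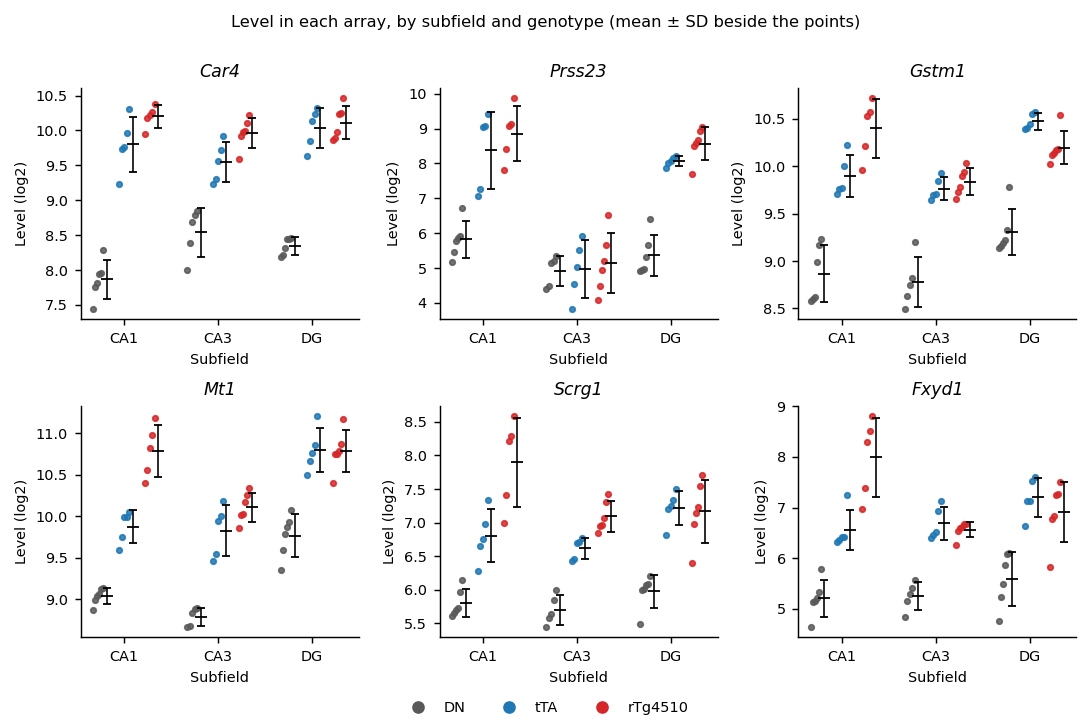
Log2 level (vertical axis) of the brightest probe set of each of the 6 genes in all 49 arrays, by subfield (horizontal axis) and genotype (DN grey, tTA blue, rTg4510 red). Points are arrays, bars are mean ± SD of the group, and the vertical axes differ between genes. Grey points lie lowest in each subfield, apart from Prss23 in CA3, where the 3 genotypes overlap, and Fxyd1 in DG, where 1 rTg4510 array reached down into the DN range.

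Car4 stood higher in both transgenic groups in all 3 subfields. Its rTg4510 mean was above its tTA mean by 0.40, 0.42 and 0.08 in CA1, CA3 and DG. In captured tissue a level can differ through the number of cells of a type or through RNA per cell, and these cannot be told apart. Within each group the values that follow are in the order of the mouse numbers, which for tTA were mouse4570, mouse4580, mouse4592, mouse4626 and mouse4637, and for rTg4510 in CA1 mouse4535, mouse4549, mouse4600, mouse4653 and mouse4666. In CA1 the 6 DN arrays ran from 7.45 to 8.29 with a median of 7.88, the tTA arrays read 9.77, 10.31, 9.23, 9.73 and 9.96, and the rTg4510 arrays read 9.94, 10.18, 10.26, 10.23 and 10.38. In CA3 the 5 DN arrays read 8.79, 8.39, 7.99, 8.85 and 8.69, the tTA arrays 9.31, 9.57, 9.72, 9.92 and 9.23, and the 6 rTg4510 arrays ran from 9.59 to 10.23 with a median of 9.99. In DG the range was from 8.18 to 8.46 with a median of 8.38 in DN, the tTA arrays read 9.85, 10.32, 9.64, 10.13 and 10.24, and rTg4510 ran from 9.86 to 10.46 with a median of 10.11. No transgenic array overlapped a DN array in any subfield, and the gap to DN was smallest in CA3, where DN itself was highest (8.54 ± 0.35, mean ± SD, against 7.87 ± 0.28 in CA1). The tTA mean exceeded the DN mean by 1.93 in CA1 (3.82-fold), 1.01 in CA3 and 1.69 in DG. The rTg4510 mean exceeded it by 2.33 (5.04-fold), 1.43 and 1.77. The dimmer Car4 probe set showed the same absence of overlap, with tTA above DN by 2.12, 1.21 and 1.80 in CA1, CA3 and DG. By this probe set rTg4510 was above tTA by 0.07, 0.48 and 0.03. Its name marks probes that can match more than 1 transcript.

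Prss23 differed most from the other genes in where it stood high. In CA1 the DN arrays ran from 5.18 to 6.73 with a median of 5.82, the tTA arrays read 9.41, 9.08, 7.08, 7.27 and 9.06, and the rTg4510 arrays read 7.81, 9.08, 9.87, 8.41 and 9.12. In DG the DN arrays ran from 4.91 to 6.42 with a median of 5.15, the tTA arrays read 8.21, 8.02, 7.87, 8.08 and 8.16, and rTg4510 ran from 7.69 to 9.04 with a median of 8.63. In CA3 the DN arrays read 5.21, 4.48, 5.35, 5.14 and 4.40, the tTA arrays 3.83, 5.53, 5.02, 4.55 and 5.93, and rTg4510 ran from 4.08 to 6.52 with a median of 5.06. Every transgenic array lay above every DN array in CA1 and in DG, while in CA3 the 3 genotypes covered the same range and the levels were near the median of all probe sets, 5.04. The tTA mean was above the DN mean by 2.56 in CA1 (5.89-fold) and 2.70 in DG (6.49-fold), against 0.06 in CA3. For rTg4510 the same gaps were 3.04, 3.20 (9.19-fold) and 0.23, the widest of the 6 genes in CA1 and DG. The tTA arrays of CA1 were split, with mouse4592 and mouse4626 at 7.08 and 7.27 and the other 3 at 9.06 or above, which gave the group an SD of 1.11. Mouse4592 also had the highest oligodendrocyte marker mean of the tTA CA1 arrays, 7.30 against 6.32 to 6.85 in the others, and mouse4626 was at 6.39. The second Prss23 probe set gave the same picture, with a gap of tTA to DN of 2.07 in CA1, 0.27 in CA3 and 2.64 in DG. The name of the brighter one marks probes that can match other transcripts.

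**Figure D2:**
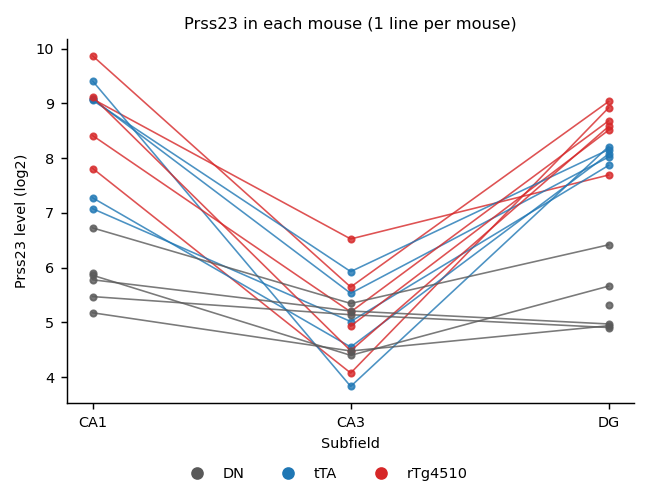
Prss23 log2 level (vertical axis) in CA1, CA3 and DG (horizontal axis), with 1 line for each mouse coloured by genotype (DN grey, tTA blue, rTg4510 red) and breaks where a mouse had no array. All 11 transgenic mice with a DG array were at 7.69 or above there, and in CA3 none was above 6.52.

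Gstm1 stood above DN in both transgenic groups, by about a doubling in most and by 2.89-fold in rTg4510 CA1. The DN arrays of CA1 ran from 8.58 to 9.24 with a median of 8.81, the tTA arrays read 9.70, 9.77, 10.23, 10.01 and 9.76, and the rTg4510 arrays read 10.53, 10.21, 9.96, 10.58 and 10.72. The CA3 arrays read 8.82, 8.74, 8.64, 8.50 and 9.20 in DN and 9.64, 9.70, 9.93, 9.70 and 9.85 in tTA mice, and ran from 9.65 to 10.03 with a median of 9.84 in rTg4510 mice. The DG arrays ran from 9.14 to 9.78 with a median of 9.21 in DN, read 10.45, 10.39, 10.55, 10.57 and 10.40 in tTA, and ran from 10.03 to 10.54 with a median of 10.16 in rTg4510 mice. DN and transgenic arrays did not overlap in any subfield, and in DG the tTA mean was the higher of the 2 transgenic means. The gap of tTA to DN was 1.03 in CA1, 0.99 in CA3 and 1.17 in DG. That of rTg4510 was 1.53, 1.06 and 0.89. Of the 3 other probe sets, 2 were free of overlap in every subfield, and the dimmest, with a mean of 2.94, was so only in CA1. The names of 2 Gstm1 probe sets, the brightest among them, mark probes that can match related transcripts, so other Gstm genes may share in their signal.

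Mt1 was the gene whose DN arrays varied least in CA1, where they ran from 8.86 to 9.14 with a median of 9.05. The tTA arrays of CA1 read 9.99, 9.59, 10.05, 9.75 and 9.99, and the rTg4510 arrays read 11.19, 10.56, 10.41, 10.83 and 10.99. In CA3 the readings were 8.66, 8.83, 8.67, 8.88 and 8.89 in DN and 10.01, 9.54, 10.19, 9.46 and 9.94 in tTA, and rTg4510 ran from 9.86 to 10.34 with a median of 10.10. In DG the DN arrays ran from 9.36 to 10.07 with a median of 9.83, the tTA arrays read 10.50, 10.67, 11.21, 10.77 and 10.86, and rTg4510 ran from 10.40 to 11.17 with a median of 10.77. In CA1 the 3 genotypes formed 3 ranges with no overlap, in the order DN, tTA and rTg4510, whereas in DG the transgenic groups overlapped. The tTA gap to DN was 0.84 in CA1, 1.04 in CA3 and 1.04 in DG. The rTg4510 gap was 1.76 (3.39-fold), 1.32 and 1.02. The second Mt1 probe set was dim, at a mean of 4.11, and its genotypes overlapped in every subfield. The name of the brighter one marks probes that can match more than 1 transcript.

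Scrg1 stood above DN in all 3 subfields. In CA1 the range was from 5.62 to 6.14 with a median of 5.71 in DN, the tTA arrays read 6.75, 6.28, 7.34, 6.98 and 6.66, and the rTg4510 arrays 8.58, 7.41, 7.002, 8.22 and 8.28. In CA3 the DN arrays read 5.85, 5.64, 5.58, 5.45 and 6.01, the tTA arrays 6.46, 6.70, 6.43, 6.72 and 6.78, and rTg4510 ran from 6.85 to 7.43 with a median of 7.02. In DG, DN ran from 5.50 to 6.20 with a median of 6.05, tTA read 6.81, 7.20, 7.49, 7.34 and 7.25, and rTg4510 ran from 6.39 to 7.72 with a median of 7.18. The ranges of tTA and rTg4510 overlapped in CA1 and DG and were separate in CA3, and no transgenic array overlapped DN. The tTA gap to DN was 1.003, 0.92 and 1.24 in CA1, CA3 and DG, and the rTg4510 gap was 2.10 (4.28-fold), 1.39 and 1.19.

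Fxyd1 had the widest rise from tTA to rTg4510 in CA1. Its DN arrays there ran from 4.65 to 5.78 with a median of 5.19, the tTA arrays read 6.33, 6.36, 7.26, 6.42 and 6.42, and the rTg4510 arrays 8.80, 7.39, 6.96, 8.29 and 8.52. In CA3 the DN arrays read 4.85, 5.41, 5.16, 5.56 and 5.30, tTA 6.46, 6.40, 6.52, 6.94 and 7.13, and rTg4510 ran from 6.27 to 6.68 with a median of 6.61. In DG the DN arrays ran from 4.76 to 6.11 with a median of 5.68, tTA read 6.63, 7.13, 7.12, 7.52 and 7.60, and rTg4510 ran from 5.84 to 7.51 with a median of 7.04. DN and transgenic arrays were separate in CA1 and CA3, and in DG rTg4510 mouse4621, at 5.84, lay below the highest DN array. The tTA gap to DN was 1.34 in CA1, 1.43 in CA3 and 1.61 in DG. The rTg4510 gap was 2.78 (6.87-fold), 1.31 and 1.32. Mouse4621 had no CA1 array, and its DG array also had the lowest Scrg1 level (6.39) and the lowest astrocyte and microglia marker means (8.005 and 5.68) of the rTg4510 DG arrays.

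Counted over probe sets, every tTA and every rTg4510 array lay above every DN array for 11 of the 12 in CA1, 8 in CA3, 9 in DG and 7 in all 3 subfields. Over the whole array 1.88%, 1.12% and 1.41% of probe sets did so in CA1, CA3 and DG, and 0.194% in all 3. These counts restate the choice of the genes.

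With the Actb ratio as a covariate the gaps to DN of the brightest probe sets kept their direction. In CA1, CA3 and DG those of tTA were then 1.89, 1.14 and 1.67 for Car4, 2.93, 0.03 and 3.10 for Prss23 and 1.13, 1.05 and 1.20 for Gstm1. They were 0.68, 0.94 and 1.01 for Mt1, 0.92, 0.96 and 1.09 for Scrg1 and 1.20, 1.45 and 1.23 for Fxyd1. The Mt1 gap in CA1 and the Fxyd1 gap in DG narrowed most, and the Prss23 gaps in CA1 and DG widened. Those of rTg4510 were 2.32, 1.55 and 1.76 for Car4, 3.16, 0.20 and 3.49 for Prss23, 1.56, 1.13 and 0.91 for Gstm1, 1.71, 1.22 and 1.004 for Mt1, 2.07, 1.43 and 1.09 for Scrg1 and 2.74, 1.33 and 1.05 for Fxyd1.

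Whether rTg4510 mice, which carry the tau transgene as well, differed from tTA mice was tested within each subfield. No array came from mice with the tau transgene alone, so mutant tau and other effects of carrying that transgene cannot be told apart. The genes were not chosen by this contrast, but by levels of the same arrays, with earlier results of these data known. Its p-values are therefore not independent of that choice. In CA1, Fxyd1, Scrg1 and Mt1 rose further in rTg4510 mice. The difference of rTg4510 from tTA was 1.44 ± 0.31 (SE, limma adjusted p = 0.00733) for Fxyd1, 2.71-fold. It was 1.10 ± 0.26 (SE, limma adjusted p = 0.0125) for Scrg1, 2.14-fold. For Mt1 it was 0.92 ± 0.13 (SE, limma adjusted p = 0.000733), 1.89-fold, with all 5 rTg4510 arrays above all 5 tTA arrays. Gstm1 did not pass, at 0.51 ± 0.17 (SE, limma adjusted p = 0.0657), nor did Car4, at 0.40 ± 0.17 (SE, limma adjusted p = 0.162), or Prss23, at 0.48 ± 0.47 (SE, limma adjusted p = 0.582), where the split among tTA mice widened the error. Thus 3 of the 12 probe sets were called, beside 10.6% of all probe sets in this comparison. With the Actb ratio as a covariate the differences were 1.53 for Fxyd1, 1.15 for Scrg1 and 1.03 for Mt1, and the count was again 3. Without tTA mouse4592 the count was 6 and without rTg4510 mouse4600 it was 7, and Gstm1 then passed, with differences of 0.59 and 0.61. With only the rTg4510 and tTA arrays in the fit Scrg1 was no longer called (adjusted p = 0.0659), and calls over all probe sets went from 2405 to 1056, against 1313 with the Actb covariate.

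In CA3 and DG none of the 12 probe sets passed in limma, beside 1.13% and 0.782% of all probe sets. With only the rTg4510 and tTA arrays in the fit, calls over all probe sets went from 256 to 25 in CA3 and from 177 to 1 in DG. An unadjusted p under 0.05 was reached by 4 in CA3 and 3 in DG, and the least significant difference test of the study's methods, adjusted in the same way, also called 0 in both. In CA3 the differences of rTg4510 from tTA were 0.47 ± 0.12 (SE, limma adjusted p = 0.0736) for Scrg1, 0.42 ± 0.16 (SE, limma adjusted p = 0.231) for Car4 and 0.28 ± 0.13 (SE, limma adjusted p = 0.308) for Mt1. Those of Gstm1, Prss23 and Fxyd1 were 0.08, 0.17 and -0.12. In DG, Prss23 was at 0.50 ± 0.25 (SE, limma adjusted p = 0.368), and its second probe set at 0.77 ± 0.25 (SE, limma adjusted p = 0.141). Gstm1 (-0.28), Fxyd1 (-0.29), Scrg1 (-0.05), Mt1 (-0.01) and Car4 (0.08) lay at or below 0.08. Without rTg4510 mouse4549 1 probe set was called in DG.

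**Figure D3:**
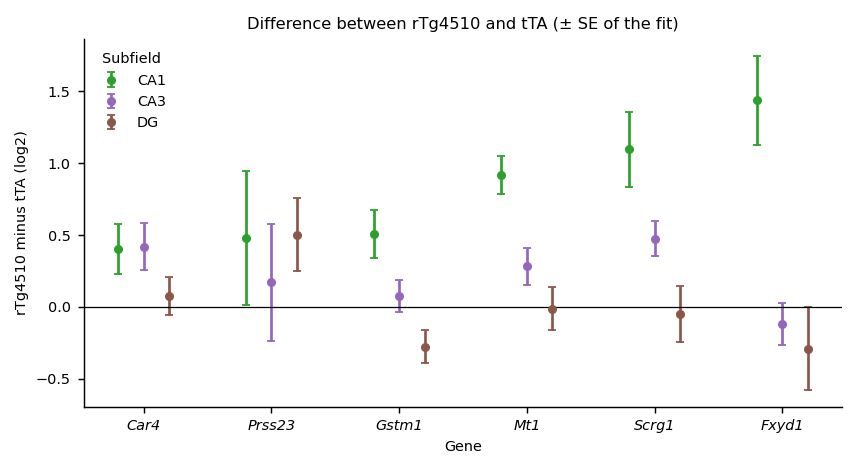
Difference of rTg4510 from tTA (vertical axis, log2) for each gene (horizontal axis, brightest probe set) in CA1 (green), CA3 (purple) and DG (brown), with bars of ± SE from the fit. In CA1 Fxyd1, Scrg1 and Mt1 lie at 1.44, 1.10 and 0.92, and no DG value of these 3 genes is above 0.

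The difference of rTg4510 from tTA was then compared between subfields over all 49 arrays, with the mouse as a random block. These p-values have the same limit, as the arrays are those by which the genes were chosen. The difference was larger in CA1 than in DG for 4 genes, by 1.70 ± 0.36 (SE, limma adjusted p = 0.00281) for Fxyd1 and 1.13 ± 0.27 (SE, limma adjusted p = 0.0081) for Scrg1. For Mt1 the excess was 0.93 ± 0.18 (SE, limma adjusted p = 0.0015), and for the brightest Gstm1 probe set 0.78 ± 0.18 (SE, limma adjusted p = 0.00492). Including 2 further Gstm1 probe sets (0.80 and 0.68), 6 of 12 were called, beside 5.45% of all probe sets. Neither Car4 (0.32, adjusted p = 0.457) nor Prss23 (-0.03, adjusted p = 0.987) passed. Against CA3 the excess in CA1 was 1.53 ± 0.36 (SE, limma adjusted p = 0.011) for Fxyd1 and 0.63 ± 0.18 (SE, limma adjusted p = 0.0413) for Mt1, 2 of 12 probe sets beside 3.88%. The Mt1 call was lost without any 1 of 10 mice (mouse4535, mouse4653 and mouse4666 of rTg4510, mouse4570, mouse4580, mouse4592 and mouse4637 of tTA, and mouse4825, mouse4883 and mouse4886 of DN), with differences between 0.55 and 0.63 and adjusted p up to 0.129, and also with array weights (0.62, adjusted p = 0.0539) or no replicate block (0.64, adjusted p = 0.0745). The count was 1 in each case. Between CA3 and DG limma called 0 of 12, beside 0.00884% of all probe sets, and 2 had an unadjusted p under 0.05.

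Levels of the same gene also differed between subfields, taken as the mean over the 3 genotypes with equal weight. This mean holds the transgenic levels by which the 6 genes were chosen. P-values printed with it are therefore descriptive and give no support apart from that choice. For Prss23 it is given with no test: CA1 lay 2.67 above CA3, and CA3 stood at -2.33 relative to DG. The Prss23 means of DN mice lay closer together, at 5.82 ± 0.52, 4.91 ± 0.44 and 5.37 ± 0.59 (SD) in CA1, CA3 and DG. Mt1 was highest in DG, with CA1 at -0.55 ± 0.07 (SE, limma adjusted p = 4.61e-08) and CA3 at -0.88 ± 0.07 (SE, limma adjusted p = 1.22e-13) relative to DG. Within genotypes its difference of CA1 from DG was -0.73 in DN, -0.93 in tTA and 0.004 in rTg4510, so rTg4510 had no such gap. Gstm1 was also highest in DG by the mean over genotypes, with -0.27 ± 0.07 (SE, limma adjusted p = 0.00278) for CA1 and -0.53 ± 0.07 (SE, limma adjusted p = 4.53e-08) for CA3. Its difference of CA1 from DG was -0.44 in DN, -0.58 in tTA and 0.20 in rTg4510, the reverse order in the last. Scrg1 and Fxyd1 were lower in CA3 than in DG, with differences of -0.32 ± 0.11 (SE, limma adjusted p = 0.0182) and -0.39 ± 0.15 (SE, limma adjusted p = 0.0283), and did not pass between CA1 and DG (0.04 and 0.01). The small means between CA1 and DG joined differences of opposite sign. Scrg1 in CA1 differed from DG by -0.18 in DN, -0.42 in tTA and 0.73 in rTg4510. For Fxyd1 the values were -0.38, -0.64 and 1.08.

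CA1 exceeded CA3 by 0.32 ± 0.07 (SE, limma adjusted p = 0.000791) for Mt1 and 0.26 ± 0.07 (SE, limma adjusted p = 0.00626) for Gstm1. For Scrg1 the excess was 0.36 ± 0.11 (SE, limma adjusted p = 0.0133) and for Fxyd1 0.40 ± 0.15 (SE, limma adjusted p = 0.0375). These gaps were widest in rTg4510 mice for all 4 genes. The Mt1 gap was 0.25 in DN, 0.05 in tTA and 0.68 in rTg4510, and the Gstm1 gap was 0.09 in DN, 0.13 in tTA and 0.56 in rTg4510. That of Scrg1 was 0.10 in DN, 0.18 in tTA and 0.80 in rTg4510. The Fxyd1 gap was -0.04 in DN, -0.13 in tTA and 1.43 in rTg4510, so its call rests on rTg4510 mice, and CA1 lay slightly below CA3 in the other 2 genotypes.

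The brightest Car4 probe set had no call between subfields, at -0.06 ± 0.09 (SE, limma adjusted p = 0.661) for CA1 against CA3, -0.21 ± 0.08 (SE, limma adjusted p = 0.0568) for CA1 against DG and -0.15 ± 0.08 (SE, limma adjusted p = 0.179) for CA3 against DG. These means joined genotypes of opposite sign. Car4 in CA1 differed from CA3 by -0.67 in DN, 0.25 in tTA and 0.23 in rTg4510. From DG it differed by -0.48, -0.24 and 0.09, and CA3 differed from DG by 0.20, -0.49 and -0.145. In all 8, 4 and 9 of the 12 probe sets were called for CA1 against CA3, CA1 against DG and CA3 against DG, beside 25.1%, 27.3% and 36.6% of all probe sets. Both Prss23 probe sets, given above with no test, were among the 8 and the 9. As these means hold the levels by which the genes were chosen, the counts are a description. Single mice decided some of the smaller calls. Scrg1 between CA1 and CA3 was lost without tTA mouse4592 (0.30, adjusted p = 0.0509) and between CA3 and DG without DN mouse4883 (-0.28, adjusted p = 0.054). Fxyd1 between CA1 and CA3 was lost without any 1 of 9 mice (mouse4535, mouse4653 and mouse4666 of rTg4510, mouse4570, mouse4580 and mouse4592 of tTA, and mouse4797, mouse4825 and mouse4886 of DN), at 0.33 to 0.41 with adjusted p up to 0.113, with array weights (0.36, adjusted p = 0.0528), and with the mouse as a fixed replicate block (0.35, adjusted p = 0.071). Between CA3 and DG it was lost without tTA mouse4580 or DN mouse4797 or mouse4866, at -0.38 to -0.35 with adjusted p up to 0.0628. Car4 between CA1 and DG passed without rTg4510 mouse4549, tTA mouse4580 or DN mouse4886.

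Markers of other cell types also differed between the genotypes. Each list was read by the brightest probe set of each gene, and its level is the mean over the list. The 17 astrocyte markers had a mean between 7.04 and 7.45 in DN, 7.38 and 7.86 in tTA, and 8.12 and 8.81 in rTg4510 CA1 arrays, an order without overlap between rTg4510 and the others. In CA3 the ranges were 7.01 to 7.40, 7.53 to 7.99 and 7.74 to 8.07, and in DG 7.12 to 7.81, 8.19 to 8.63 and 8.005 to 8.56. Against tTA, 11 of 17 rose in rTg4510 CA1, with a median difference of 0.75 beside -0.03 over all probe sets. In CA3, 1 of 17 passed, Gfap, the intermediate filament of astrocytes at 1.01 (adjusted p = 0.0279), and in DG limma called none (median -0.02). In CA1 the rise of Gfap was 2.55 (adjusted p = 7.88e-05) and that of Aqp4, the water channel of astrocyte endfeet, was 1.40 (adjusted p = 0.00231).

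Against DN, tTA mice already had 9, 11 and 14 of the 17 astrocyte markers higher in CA1, CA3 and DG (1 was lower in DG), with medians of 0.46, 0.68 and 1.02. In rTg4510 mice 16, 10 and 13 were higher, with medians of 1.37, 0.70 and 0.84. The whole array had 16.2%, 9.09% and 16.7% of probe sets called for tTA against DN and 23.4%, 3.12% and 8.86% for rTg4510 against DN, and both comparisons share the DN arrays. With the Actb ratio as a covariate these calls went from 3656, 2057 and 3769 probe sets to 866, 1083 and 1265 for tTA and from 5300, 705 and 2005 to 4820, 275 and 1021 for rTg4510. The astrocyte markers higher than in DN were then 1, 8 and 8 in tTA (again 1 lower in DG) and 16, 6 and 8 in rTg4510, so most of the tTA calls in CA1 were lost, and 11, 1 and 0 were higher in rTg4510 than in tTA. The astrocyte gene Slc7a10 was dim, below 5.04, in all 9 groups, and Aldh1l1 was dim in every group but rTg4510 CA1, tTA CA3, and tTA and rTg4510 DG. The part of these cells in the levels of the 6 genes was not tested.

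**Figure D4:**
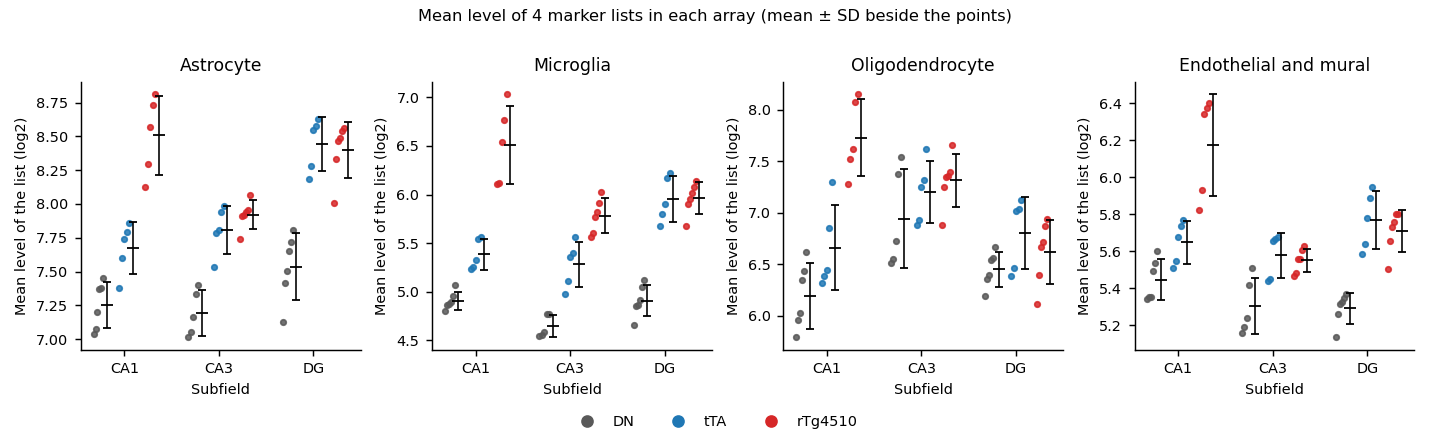
Mean log2 level (vertical axis) of 17 astrocyte, 19 microglia, 12 oligodendrocyte and 20 endothelial and mural markers in each array, by subfield (horizontal axis) and genotype (DN grey, tTA blue, rTg4510 red), with mean ± SD of the group. In CA1 the red points lie above the others in all panels but the oligodendrocyte one, where the lowest rTg4510 array (7.28) was below the highest tTA array (7.30), and in DG the blue and red points share their range.

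The 19 microglia markers had means of 4.80 to 5.07 in DN, 5.24 to 5.56 in tTA and 6.11 to 7.03 in rTg4510 CA1, and of 4.66 to 5.12, 5.68 to 6.23 and 5.68 to 6.14 in DG. Of them 12, 4 and 0 rose in rTg4510 against tTA in CA1, CA3 and DG, with Tyrobp 1.97 (adjusted p = 0.000212), an adaptor of microglial receptors, among those in CA1. Against DN 5, 9 and 11 were higher in tTA and 17, 11 and 10 in rTg4510, or 0, 6 and 8 and 17, 10 and 9 with the Actb covariate. Trem2, Itgam, Laptm5, Cd68 and Tmem119 were dim in all 9 groups. Of 12 oligodendrocyte markers 7, 0 and 0 rose against tTA, 4, 0 and 2 were higher in tTA than in DN, and 12, 0 and 1 in rTg4510 than in DN. Of 20 endothelial and mural markers 8 rose against tTA in CA1 and 1 fell in DG, while 3, 2 and 7 were higher in tTA than in DN and 12, 1 and 5 in rTg4510 than in DN. Pecam1, Cdh5, Kdr, Tie1, Emcn, Esam, Pdgfrb and Acta2 of this list were dim in all 9 groups. With the covariate 0, 0 and 1 of the oligodendrocyte and 1, 1 and 3 of the endothelial and mural markers were higher in tTA than in DN, and 4 of the latter were higher in rTg4510 than in tTA in CA1 and none lower in DG.

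Of 15 interneuron markers 8 rose and 1 fell against tTA in CA1, none passed in CA3 or DG, and 2, 0 and 2 were higher in tTA and 9, 0 and 5 in rTg4510 than in DN. With the Actb covariate 4 were higher and none lower than in tTA in CA1. All 4 CA1 pyramidal markers fell against tTA in CA1, led by Itpka -1.89 (adjusted p = 0.00176). Of 13 meningeal and fibroblast markers 5 rose against tTA in CA1, and 9 or more were dim in each group. At least 6 of 7 choroid plexus markers were dim in each group and none differed between rTg4510 and tTA. Among 6 CA3 pyramidal markers 2 rose against tTA in CA1, and of 6 dentate granule markers none passed.

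Within groups the 6 genes did not vary as one. After each group mean was taken off, the deviations of Gstm1, Mt1, Scrg1 and Fxyd1 over 49 arrays of 17 mice had pairwise correlations of 0.44 to 0.69, highest for Scrg1 with Fxyd1, and correlations of 0.52 (Gstm1), 0.73 (Mt1), 0.63 (Scrg1) and 0.68 (Fxyd1) with the astrocyte mean. With the endothelial and mural mean the same 4 genes were at 0.61, 0.56, 0.66 and 0.66, and with the microglia mean at 0.44, 0.56, 0.58 and 0.66. The mostly dim meninges and fibroblast list gave 0.54, 0.63, 0.45 and 0.48. Car4 was at -0.11 with the astrocyte mean and between -0.31 and 0.09 with the other 5 genes, and Prss23 was at -0.10 with the astrocyte mean and between -0.39 and -0.18 with those 4. Whether metal response cores have a part in this was not tested. Scrg1 had no window, and 1 of the Prss23 windows held such a core. Of the promoter stretches printed above, those of Mt1, Gstm1 and Fxyd1 belong to the 4 genes that varied together and that of Car4 does not. Mouse4535 in CA1 showed the split, with the highest rTg4510 Fxyd1 (8.80) and Scrg1 (8.58) and the lowest Car4 (9.94) and Prss23 (7.81), whereas rTg4510 mouse4600 had the lowest Fxyd1 (6.96) and Scrg1 (7.002) and the highest Prss23 (9.87). Of the tTA CA1 arrays, that of mouse4592 had the highest Gstm1 (10.23), Mt1 (10.05), Scrg1 (7.34) and Fxyd1 (7.26) and the lowest Car4 (9.23) and Prss23 (7.08). Arrays of a mouse, and genes on an array, share their capture and hybridization, so these correlations describe the arrays and carry no test.

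**Figure D5:**
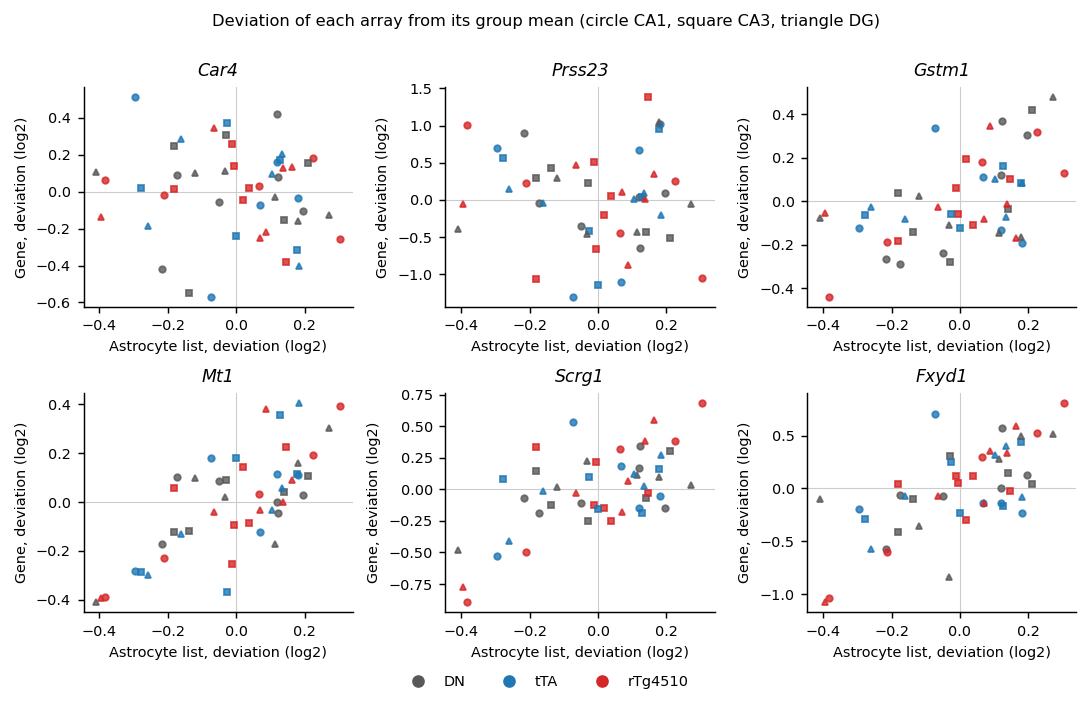
Deviation of each gene from its group mean (vertical axis, log2, scales differ) against the deviation of the astrocyte marker mean (horizontal axis, log2) in 49 arrays, coloured by genotype (DN grey, tTA blue, rTg4510 red) and marked by subfield (circle CA1, square CA3, triangle DG). Gstm1, Mt1, Scrg1 and Fxyd1 climb with the astrocyte mean (0.52 to 0.73), and Car4 and Prss23 do not (-0.11 and -0.10).

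Relatives of the 6 genes were read in the same fit, and no list was tested as a set. Their counts stand beside the shares of all probe sets called in either direction. For rTg4510 against tTA these shares were 10.6%, 1.13% and 0.782% in CA1, CA3 and DG. For tTA against DN they were 16.2%, 9.09% and 16.7%, and for rTg4510 against DN 23.4%, 3.12% and 8.86%. A count near its share is not particular to the list. Of 17 other glutathione transferases 2 rose and 2 fell in rTg4510 against tTA in CA1 and none passed in CA3 or DG. The microsomal enzyme Mgst1 rose (1.51, adjusted p = 0.00365) and Gstm7 fell (-0.75, adjusted p = 0.00437). Against DN 2, 4 and 5 were higher in tTA in CA1, CA3 and DG and 1 was lower in CA1, and 6, 2 and 4 were higher in rTg4510 with 2 lower in CA1. Gstm5 passed in all 3 subfields, with tTA above DN by 0.66 in CA1, 0.48 in CA3 and 0.95 in DG (limma adjusted p = 0.000394, 0.003 and 7.24e-06). With the Actb covariate 1, 2 and 2 of these transferases were higher in tTA and 6, 0 and 2 in rTg4510 than in DN, Gstm5 still passed in tTA in all 3 subfields, and against tTA 2 rose and 1 fell in CA1.

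Of 29 genes of glutathione synthesis and Nrf2 response 5 rose against tTA in CA1, among them the Nrf2 gene Nfe2l2 itself (1.47, adjusted p = 0.000596), none passed in CA3, and 1 fell in DG. The lipid peroxide reducing enzyme Gpx4 was higher in tTA than in DN by 0.99, 0.99 and 0.96 in CA1, CA3 and DG (limma adjusted p = 6.46e-05, 0.000586 and 3.56e-05). In all 4, 3 and 7 of this list were higher and 2, 0 and 4 lower in tTA than in DN, and 10, 2 and 4 higher and 1, 0 and 3 lower in rTg4510. Among 18 metallothionein and zinc genes the brain metallothionein Mt3 was higher in tTA than in DN in CA3 (0.73, adjusted p = 0.0183) and DG (0.71, adjusted p = 0.0226), and higher in rTg4510 in CA1 (0.82) and DG (0.70). The synaptic vesicle zinc transporter Slc30a3 went the other way, at -0.92 (adjusted p = 0.00196) for rTg4510 against tTA in CA1. This list had 2 higher and 1 lower against tTA in CA1, none in CA3 and 1 higher in DG. It had 1, 1 and 2 higher with 1, 0 and 3 lower in tTA against DN, and 2, 0 and 2 higher with 2, 0 and 1 lower in rTg4510 against DN. With the Actb covariate Gpx4 still passed in all 3 subfields in tTA, whereas Mt3 was no longer called in tTA in CA3 (adjusted p = 0.0771) or DG (0.326) nor in rTg4510 in DG (0.208). The glutathione and Nrf2 list then had 2, 3 and 2 higher and none lower in tTA than in DN, 8, 1 and 1 higher and 1 lower, in DG, in rTg4510, and 3 higher against tTA in CA1. The metallothionein and zinc list had 0, 0 and 1 higher and none lower in tTA than in DN, and 1 higher and 1 lower against tTA in CA1 with none in DG.

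For Car4, the related genes were those of acid-base handling. Of 25 genes of acid-base handling none rose and 2 fell against tTA in CA1, beside 10.6% of all probe sets called there, none passed in CA3 and 1 fell in DG. Car12, a membrane-bound carbonic anhydrase, was lower in tTA than in DN in DG (-2.32, adjusted p = 1.15e-05) and in rTg4510 (-1.93). In tTA against DN 3, 1 and 5 were higher and 2, 0 and 5 lower, beside 16.2%, 9.09% and 16.7% of all probe sets called in either direction. In rTg4510 against DN 1, 0 and 0 were higher and 4, 0 and 3 lower. With the Actb covariate 1, 1 and 0 were higher and 1, 0 and 4 lower in tTA, and 1 fell against tTA in CA1 and none in DG. Of 10 FXYD and sodium pump genes 2 rose and 1 fell against tTA in CA1, with Atp1b3 0.80 (adjusted p = 0.000733) and Fxyd2 -0.72 (adjusted p = 0.0403), and 1 fell in CA3. Against DN 1, 1 and 4 were higher in tTA with 1, 0 and 1 lower, and 3, 1 and 3 were higher in rTg4510 with 1 lower in CA1. For Prss23, 4 of 24 other trypsin-like proteases and serpins rose against tTA in CA1, including the dim tissue plasminogen activator (Plat, 1.21, adjusted p = 0.00582), and none passed in CA3 or DG. In tTA against DN 1, 1 and 4 were higher and 1, 0 and 1 lower, and in rTg4510 against DN 7, 0 and 3 were higher. Of 18 glucocorticoid-responsive genes 2 rose against tTA in CA1, beside 10.6% of all probe sets called there, and none passed in CA3 or DG. The glucocorticoid-activating enzyme Hsd11b1 was above DN in tTA mice in CA1 (1.03), CA3 (0.60) and DG (0.89). The response gene Fkbp5 was lower in DG (-0.83, adjusted p = 0.000484). In all 2, 1 and 3 of this list were higher and 1, 1 and 3 lower in tTA than in DN, and 5, 0 and 3 higher and 3, 1 and 3 lower in rTg4510. With the Actb covariate Fxyd2 was no longer called against tTA in CA1 (adjusted p = 0.0965) nor Hsd11b1 in tTA in DG (0.071), while Car12 and Fkbp5 still passed in tTA in DG. Against DN the FXYD and sodium pump list then had 0, 2 and 3 higher in tTA, the protease list 0, 1 and 1, and the glucocorticoid list 1, 1 and 0.

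The genes with the most similar profile over 49 arrays, by Pearson's r between brightest probe sets, were Rnd2 (0.88), Gstm5 (0.87) and Gfap (0.83) for Car4, and Syce2 (0.87), Atp7a (0.85) and Lasp1 (0.83) for Prss23. They were Apoe (0.93), Sdc4 (0.93) and Ndrg2 (0.92) for Gstm1, and Clu (0.96), Dbi (0.94) and Tmem47 (0.93) for Mt1. For Scrg1 they were Tyrobp (0.94), Rida (0.93) and Cd53 (0.93), and for Fxyd1 Cst3 (0.92), Cd53 (0.91) and Csrp1 (0.91). With deviations from group means in place of levels, the top 3 kept 0 of these genes for Car4 and Prss23, 2 for Gstm1 and Mt1, and 1 for Scrg1 and Fxyd1. With Spearman's rank correlation they kept 0 for Car4, 2 for Prss23 and Gstm1, 1 for Mt1 and Fxyd1, and 3 for Scrg1.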

How the data were processed

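Laser-captured CA1, CA3 and DG layers of 17 mice gave 49 arrays. RNA was amplified with the Ovation Pico WTA system and biotin-labelled. The deposited values are log2 signals that the authors summarized by RMA, named without a version in the submitters' notes. Their range, 1.944 to 13.826, is that of log2 values, although the study's methods call them anti-log. Array medians lay between 4.947 and 5.062. Of 22716 probe sets, 90 controls were left out. GEO's platform annotation gave 18003 probe sets 1 gene symbol and 287 several, and left 4336 unlisted here. Hybridization batches are not given in the sources used here. Groups and mouse numbers came from the sample titles.

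Each subfield was fitted in limma 3.58.1 (R 4.3.3) with genotype as the factor, and comparisons between subfields used all 9 groups with the mouse as a random block (within-mouse correlation 0.117). The number names the animal, so it pairs the arrays: deviations of 47 same-mouse pairs had a median correlation of 0.119, against -0.00146 for 1019 pairs of different mice. P-values were adjusted by Benjamini-Hochberg over 22626 probe sets and called below 0.05. Dim means a group mean below 5.04. All probe sets of the 6 genes were used, the one brightest over 49 arrays first. Up to 4 called genes with the largest difference could be named per list and comparison, and 3 most similar genes per member. The members and lists were chosen with earlier results of these data known. The fit was tested on simulated data. Tables and promoters were processed in Python 3.11.15 with numpy 2.4.6, pandas 2.3.3 and scipy 1.17.1.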

Additional observations from a re-analysis of the deposited data

Results flagged for a closer look

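Single arrays stood apart from the rest of their group in 5 of 54 groups of member levels, by Dixon's ratio of gap to range, and chance alone sets apart about 1 in 20 groups. Gstm1 was 9.78 in the DG array of DN mouse4806, against 9.14 to 9.33 in the other DN arrays, and 10.54 in the DG array of rTg4510 mouse4549, against 10.03 to 10.18. Scrg1 was 5.50 in the DG array of DN mouse4797, against 5.99 to 6.20. Fxyd1 was 6.27 in the CA3 array of rTg4510 mouse4621, against 6.54 to 6.68, and 7.26 in the CA1 array of tTA mouse4592, against 6.33 to 6.42.

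The difference of rTg4510 from tTA itself differed between subfields in 8 limma tests of the interaction. Between CA1 and DG it was larger in CA1 by 1.70 for Fxyd1 (adjusted p = 0.00281), 1.13 for Scrg1 (0.0081) and 0.93 for Mt1 (0.0015). The Gstm1 probe sets gave 0.78 (0.00492), 0.80 (0.00287) and 0.68 (0.0384). Between CA1 and CA3 it was larger in CA1 by 1.53 for Fxyd1 (0.011) and 0.63 for Mt1 (0.0413).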

How the results depend on the processing

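Of 378 member tests under another setting, leave-one-out fits apart, 363 kept their direction and their side of the threshold. The count of member probe sets higher in rTg4510 than in tTA in CA1 went from 3 to 5 with an intensity trend and to 5 with only probe sets above the median level, and ran from 3 to 7 without 1 mouse. Without 1 mouse it ran from 0 to 0 in CA3 and from 0 to 1 in DG. The count of differences larger in CA1 than in CA3 went from 2 to 1 with array weights and to 1 with no replicate block, and from 1 to 3 without 1 mouse, where that between CA1 and DG ran from 5 to 6 and that between CA3 and DG from 0 to 0. Counts between subfields, Prss23 included, ran from 6 to 9 (CA1 and CA3), 3 to 4 (CA1 and DG) and 8 to 9 (CA3 and DG). The replicate block, fixed or left out, changed no other count of member probe sets by over 1.5 times. Over all probe sets, without the block, calls for the difference between CA1 and CA3 went from 878 to 526 and for that between CA3 and DG from 2 to 0 (1 with a fixed block). Small differences turned sign. With array weights the difference of rTg4510 from tTA in DG was -0.00148 for Car4 and 0.00924 for Mt1, and that of CA1 from DG was -0.00913 for Scrg1 and -0.0765 for Fxyd1, the last also -0.0262 with the mouse as a fixed replicate block. By group medians Prss23 in CA3 was -0.124 (tTA) and -0.078 (rTg4510) from DN. Without 1 mouse these ran from -0.182 to 0.342 and from -0.0486 to 0.441, and the Prss23 difference of rTg4510 from tTA in CA3 from -0.114 to 0.410. In DG that difference ran from -0.0222 to 0.150 for Car4, -0.0880 to 0.0893 for Mt1 and -0.159 to 0.106 for Scrg1. Its excess in CA1 over CA3 ran from -0.207 to 0.0999 for Car4 and -0.0336 to 0.844 for Prss23, and over DG from -0.308 to 0.298 for Prss23. CA1 against DG ran from -0.00701 to 0.109 for Scrg1 and -0.0541 to 0.0895 for Fxyd1. Car4 between CA1 and DG passed with quantile normalization again (-0.23), only brighter probe sets (-0.21) or a fixed replicate block (-0.22). Averaging a gene's probe sets moved 10 differences from DN by more than the spread between arrays. The Actb covariate, added for differences from DN after the data were seen, turned no such sign for the 6 genes and moved 1 difference by more than that spread, Mt1 of tTA in CA1 (0.68 in place of 0.84). The cause was not tested. Groups of 5 or 6 arrays limit the precision, and dim probe sets carry little signal over background.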
